A study of Homo sapiens with 8 samples.

Results

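The genes described here encode a death ligand, its receptors and the caspases and inhibitors that act below them. They were the 8 genes TNFSF10, TNFRSF10A, TNFRSF10B, TNFRSF10D, FAS, CASP8, CFLAR and XIAP, chosen by gene name from the 60282 genes of the gene-level count table. RNA was sequenced from SK-UT-1, an established human uterine leiomyosarcoma cell line, to ask which transcripts respond to TP-472, an inhibitor of the bromodomain proteins BRD9 and BRD7. One group of 4 libraries came from cells given 5 µM TP-472 for 48 h, and the other group of 4 came from cells given the vehicle, DMSO. Both groups were grown in the same serum-containing medium, and the comparison covers a single line, dose and time. The labels do not say whether the 4 libraries of a group came from separate cultures, and the study speaks of biological replicates for its experiments in general. The p-values measure the spread between these libraries, which may be technical if the cultures were shared. The libraries held between 32574716 and 38545695 counts each.

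The extrinsic pathway of apoptosis starts at the cell surface. TRAIL, the product of TNFSF10, binds the death receptors DR4 (TNFRSF10A) and DR5 (TNFRSF10B), and FAS ligand binds FAS. The engaged receptors recruit the adaptor FADD and procaspase-8 through death domains and death effector domains, and active caspase-8 (CASP8) cleaves the executioner caspases and BID. Decoy receptors such as TNFRSF10D bind TRAIL but do not pass on the death signal, c-FLIP (CFLAR) competes with caspase-8 for the adaptor, and XIAP binds and inhibits caspases downstream.

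Promoter sequences were examined for motifs of the interferon and NF-kB routes. Those of TNFSF10, CFLAR and BIRC3, an inhibitor of apoptosis described further on, are printed, since these genes are known targets of the routes. The RefSeq windows (GRCh38.p14, 250 bases before to 50 bases after an annotated start, printed 5′ to 3′ on the strand of the gene) lay at chr3:172523381-172523680 on the minus strand for TNFSF10, at chr2:201118466-201118765 on the plus strand for the first of 4 CFLAR starts, and at chr11:102317234-102317533 on the plus strand for BIRC3. Capitals mark the interferon-stimulated response element (ISRE) core, GAAANNGAA on either strand, in TNFSF10 and the NF-kB consensus in CFLAR and BIRC3.
TNFSF10: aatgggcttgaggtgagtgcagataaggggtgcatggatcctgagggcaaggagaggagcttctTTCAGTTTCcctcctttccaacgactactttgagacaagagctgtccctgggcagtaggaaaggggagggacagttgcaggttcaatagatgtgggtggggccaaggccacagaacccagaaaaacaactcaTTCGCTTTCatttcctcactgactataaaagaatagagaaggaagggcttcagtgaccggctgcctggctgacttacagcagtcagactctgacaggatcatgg
CFLAR: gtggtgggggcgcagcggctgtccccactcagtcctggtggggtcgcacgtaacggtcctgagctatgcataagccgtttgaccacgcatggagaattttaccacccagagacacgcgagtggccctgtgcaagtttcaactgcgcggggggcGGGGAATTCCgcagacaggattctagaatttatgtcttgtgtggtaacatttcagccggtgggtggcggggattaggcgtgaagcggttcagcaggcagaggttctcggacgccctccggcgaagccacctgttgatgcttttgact
BIRC3: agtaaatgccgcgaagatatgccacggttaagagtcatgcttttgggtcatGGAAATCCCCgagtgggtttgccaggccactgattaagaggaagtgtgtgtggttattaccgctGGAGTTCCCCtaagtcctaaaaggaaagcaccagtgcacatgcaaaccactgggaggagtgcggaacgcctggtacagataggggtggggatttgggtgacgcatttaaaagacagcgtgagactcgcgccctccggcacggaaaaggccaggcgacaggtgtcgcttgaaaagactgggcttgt
TNFSF10 held 2 ISRE cores, both on the reverse strand, with first bases at -186 and -54 from the start. The CFLAR window held 1 NF-kB match at -97, and the BIRC3 window held 2 at -199 and -135. The windows of XAF1, an interferon-induced gene described further on, held no ISRE core and 1 NF-kB match at -103. The window of TNFAIP3, an NF-kB feedback gene also described further on, held 2 NF-kB matches at -67 and -55. Among other pathway genes tested below, NF-kB matches also lay in windows of TNFRSF25, called lower, and of CYLD, PARP1 and BIRC6, not called. The windows of BIRC2, TNFRSF21, PEA15 and CYCS, called higher, held none. Whether the matches go with a change was not tested. An ISRE core occurred in 8.11% and an NF-kB match in 5.91% of all 35116 windows. Of the 5 members matched to a window, CASP8 had an ISRE core and a match to the STAT motif TTCNNNGAA (GAS) at one of its 3 starts and an AP-1 match (TGANTCA) at each of the others. FAS had an NF-kB and an AP-1 match at separate starts, another CFLAR start had an ISRE core and an AP-1 match, and XIAP had none of the 4 motifs in its 3 windows. Both strands were searched, and no 2 matches overlapped in these windows. The GAS and AP-1 motifs occurred in 7.66% and 7.71% of windows. A match is a description of the letters, and the windows of the other 3 members were not analysed here.

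Before the genes were compared, the libraries were set against each other. Vehicle replicate 3 stood apart from its group. On the first principal component of log2 CPM (read counts scaled to library size) it lay at -94.0, against -36.4, -13.5 and -14.5 for the other vehicle libraries, and its median distance to its own group was 111.0, against 47.2 to 48.4 for the others. The TP-472 libraries lay between 37.0 and 43.4 on that component. The main results are therefore given with and without vehicle replicate 3. All CPM values below were scaled by the trimmed mean of M values (TMM), and levels are compared between genes only after division by exon length, apart from the ratio of CFLAR to CASP8 counts, which is set between groups and says nothing of which gene is higher.

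The label of a smooth muscle tumour line was set against marker genes. Of 7 smooth muscle markers, 5 passed the filter on low counts, with ACTA2 the highest per kb of merged exon at 53.9 CPM per kb in vehicle and 36.8 with TP-472, while MYH11 and MYOCD were near 0. The summed level of the list ran from 362.2 to 426.1 CPM in vehicle and from 322.3 to 325.3 CPM with TP-472. Within it DES (3.25 to 0.629 CPM) and TAGLN (32.3 to 20.3 CPM) were called lower. DES was under 1 CPM in every TP-472 library and passed the filter through the vehicle libraries. CALD1, which holds much of the sum, was at 199.6 and 191.6 CPM and was not called. Of 4 epithelial markers 2 passed, with KRT18 the most abundant per kb, and the sum of the 4 was 8.84 to 11.7 CPM in vehicle and 16.9 to 20.7 CPM with TP-472. KRT18 was called higher (7.39 to 15.6 CPM), while the defining markers EPCAM (0.731 and 0.245 CPM) and CDH1 (0.417 and 0.415 CPM) were under the filter. Of 4 leukocyte markers only CD68 passed, with the pan-leukocyte gene PTPRC and the T cell gene CD3E at or near 0, and the sum was 7.15 to 8.51 CPM in vehicle and 9.75 to 12.9 CPM with TP-472. The 3 endothelial markers summed to under 1 CPM in every library. In the fibroblast list 2 of 4 passed, with COL1A1 the most abundant per kb of merged exon and DCN and LUM near 0. Its sum was 10.7, 4.08, 22.6 and 4.10 CPM in vehicle replicates 1 to 4 and 2.58 to 3.68 CPM with TP-472. COL1A1 was called lower (9.19 to 1.80 CPM, log2 fold change -2.35), also without vehicle replicate 3 (-1.46). The part of these differences in the results was not tested.

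Of the 8 genes, 7 passed the filter of more than 1 CPM in at least 4 libraries. With TP-472 the decoy receptor TNFRSF10D rose 2.61-fold and the death receptor TNFRSF10A rose 1.66-fold, while none of the 7 was called lower. In these bulk samples, fewer cells with a transcript and less of it per cell cannot be told apart. TNFRSF10B, FAS, CASP8 and CFLAR did not pass the test, nor did XIAP with all libraries. A gene was called differentially expressed when its adjusted p in edgeR's quasi-likelihood test was under 0.05 and its fold change over 1.5. Across the 14073 genes tested, 26.9% were called, 12.0% as higher and 14.9% as lower, so 2 of 7 (28.6%) was close to the share among all genes and is not a result about the group. The median log2 fold change was 0.03 over the 7 genes and -0.026 over all genes tested. Without vehicle replicate 3 the same 2 genes were called, against 25.5% of all genes, and the median of the 7 was 0.081.

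**Figure D1:**
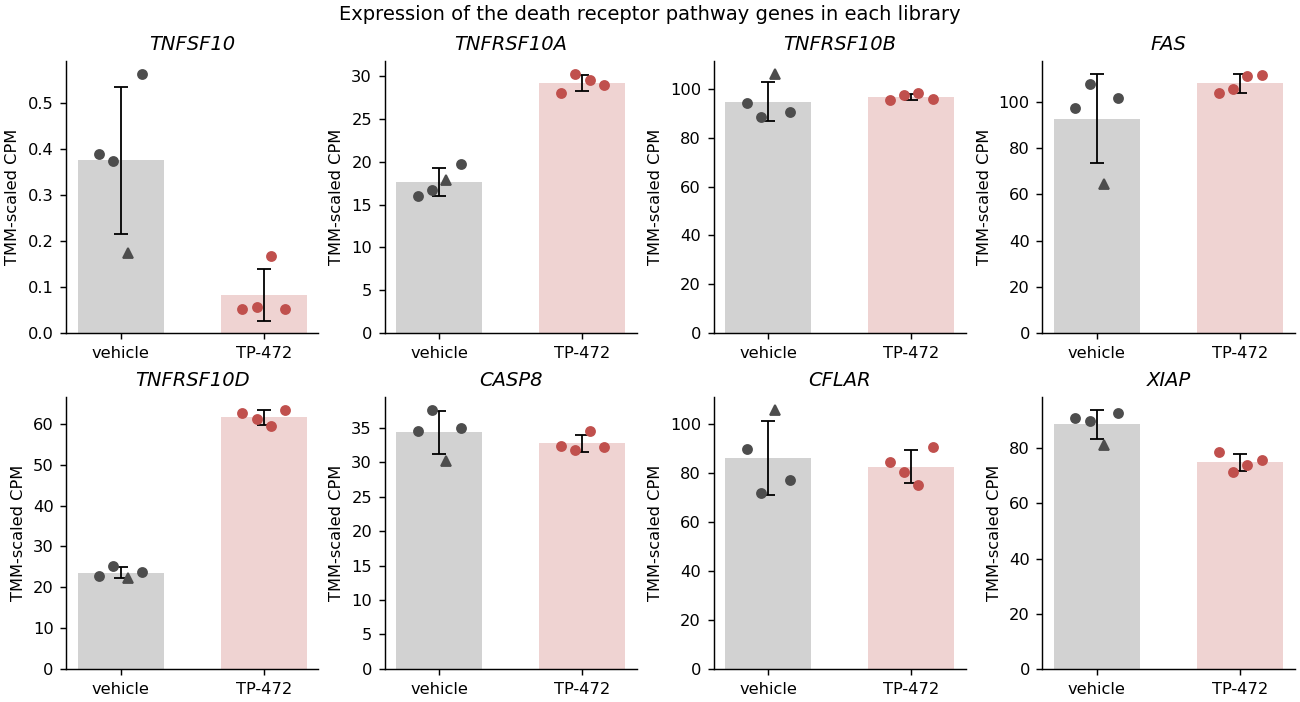
TMM-scaled CPM (y axis, linear, from 0, with its own scale in each panel) of the 8 genes in 4 vehicle and 4 TP-472 libraries. Points are libraries, bars are means, error bars are SD, and the triangle is vehicle replicate 3. The TP-472 points of TNFRSF10A and TNFRSF10D lie above all vehicle points, and those of XIAP lie below.

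The ligand gene TNFSF10 (ENSG00000121858.11, GRCh38 chr3:172505508-172523507, minus strand) was scarcely detected. Its counts in vehicle replicates 1 to 4 were 14, 13, 6 and 20, and with TP-472 they were 2, 2, 6 and 2. Vehicle replicate 3 and TP-472 replicate 3 thus had the same count, and only the scaling placed them at 0.174 and 0.166 CPM. The gene did not pass the filter and has no value in the main test. The summed counts were 53 in vehicle and 12 with TP-472. Per TMM-scaled library size this was a 4.64-fold lower level after treatment (95% exact binomial interval 2.45 to 9.53, counting error only). An exact two-sided permutation test of the CPM values gave p = 0.0286, the smallest that 4 against 4 libraries can give. When all genes with any count were tested, its adjusted p was 0.0204 in edgeR and 0.00895 in DESeq2, and in both it was called lower. Without TP-472 replicate 3 the log2 ratio of mean CPM was -2.80 in place of -2.19, and without vehicle replicate 3 it was -2.43.

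TNFRSF10A, the gene of DR4 (ENSG00000104689.10, chr8:23190452-23225126, minus strand), was measured at 16.0, 16.8, 17.9 and 19.7 CPM in vehicle replicates 1 to 4 and at 28.1, 30.3, 29.6 and 29.01 CPM with TP-472. Every treated library was above every vehicle library, and vehicle replicate 3 lay within its group. The mean rose from 17.6 ± 1.62 to 29.2 ± 0.936 CPM (SD, n = 4), a log2 fold change of 0.73 with an SE of 0.107 (edgeR adjusted p = 0.00136). The 95% interval of the fold change, 1.404 to 1.96, included 1.5, and a test against a 1.5-fold change gave an adjusted p of 0.202 (edgeR). Without vehicle replicate 3 the log2 fold change was 0.74 (edgeR adjusted p = 8.14e-05).

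TNFRSF10B, the gene of DR5 (ENSG00000120889.13, chr8:23020133-23069179, minus strand), had 94.2, 88.5, 106.3 and 90.8 CPM in vehicle and 95.7, 97.6, 98.4 and 96.2 CPM with TP-472. The treated libraries lay inside the vehicle range, whose upper end was vehicle replicate 3. The log2 fold change was 0.03 (95% interval -0.18 to 0.24, edgeR adjusted p = 0.816), and the interval covers folds from 0.882 to 1.18. Without vehicle replicate 3 the value was 0.089 (edgeR adjusted p = 0.177). The interval for TNFRSF10B therefore ended below the lower end of that for TNFRSF10A, although the difference between the receptors was not tested.

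FAS (ENSG00000026103.22, chr10:88990582-89015785, plus strand), which encodes the receptor for FAS ligand, had 97.4, 107.9, 64.6 and 101.6 CPM in vehicle and 103.8, 105.6, 111.3 and 111.9 CPM with TP-472. Vehicle replicate 3 was far below the other 7 libraries, and the groups overlapped through vehicle replicate 2. The log2 fold change was 0.22 (95% interval -0.13 to 0.57, edgeR adjusted p = 0.287) and 0.081 without vehicle replicate 3 (edgeR adjusted p = 0.283). The FAS locus overlaps ACTA2, the smooth muscle actin gene on the opposite strand, which had a mean of 4850 counts and whose level was 160.3 CPM in vehicle and 109.4 CPM with TP-472. The study describes strand-specific libraries, but whether strand was used in quantification is not given in the sources used here, so reads of FAS and ACTA2 within the overlap may not be fully separated. The same holds for TNFRSF10B and RHOBTB2, for TNFRSF10A and the noncoding AC100861.1, and for CFLAR and CFLAR-AS1.

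TNFRSF10D (ENSG00000173530.6, chr8:23135588-23164030, minus strand), whose product is a TRAIL receptor with a truncated death domain, showed the largest change of the 7 tested genes. Its level was 22.8, 25.3, 22.3 and 23.8 CPM in vehicle and 62.6, 61.1, 59.4 and 63.4 CPM with TP-472. The groups were widely separated, and within each group the libraries differed little. The mean rose from 23.6 ± 1.31 to 61.6 ± 1.76 CPM (SD, n = 4), a log2 fold change of 1.39 with an SE of 0.0927 (edgeR adjusted p = 3.97e-05). The fold change was 2.61 (95% interval 2.26 to 3.02). Without vehicle replicate 3 the log2 fold change was 1.36 (edgeR adjusted p = 6.13e-07).

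CASP8 (ENSG00000064012.22, chr2:201233443-201287711, plus strand), the initiator caspase of the receptor complex, had 34.5, 37.6, 30.2 and 35.0 CPM in vehicle and 32.4, 31.7, 34.6 and 32.2 CPM with TP-472. All treated libraries lay within the vehicle range. The log2 fold change was -0.068 (95% interval -0.30 to 0.17, edgeR adjusted p = 0.623), and -0.13 without vehicle replicate 3 (edgeR adjusted p = 0.115).

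CFLAR (ENSG00000003402.20, chr2:201116104-201176687, plus strand), the gene of c-FLIP, had 89.6, 71.9, 105.6 and 77.2 CPM in vehicle and 84.3, 80.2, 75.0 and 90.7 CPM with TP-472. Vehicle replicate 3 was the highest of the 8 libraries, and the groups overlapped fully. The log2 fold change was -0.060 (95% interval -0.37 to 0.25, edgeR adjusted p = 0.751), and 0.054 without vehicle replicate 3 (edgeR adjusted p = 0.632). The ratio of CFLAR to CASP8 counts was 2.55 ± 0.691 in vehicle and 2.53 ± 0.270 with TP-472 (SD, n = 4), and the vehicle mean was 2.24 without vehicle replicate 3. Gene-level sums do not separate the long and short forms of c-FLIP or the isoforms of CASP8.

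XIAP (ENSG00000101966.12, chrX:123859724-123913979, plus strand), a direct caspase inhibitor, had 90.9, 89.9, 81.0 and 92.5 CPM in vehicle and 78.6, 71.4, 73.9 and 75.8 CPM with TP-472. Every treated library was below every vehicle library, the closest vehicle library being replicate 3. The log2 fold change was -0.24 (95% interval -0.45 to -0.036), and with all libraries it did not pass the test (edgeR adjusted p = 0.0648). Without vehicle replicate 3 it was -0.28 with an edgeR adjusted p of 0.00208, still short of 1.5-fold. On all libraries its adjusted p was 0.0373 with a stricter filter (edgeR), 8.12e-05 with limma quality weights and 0.0154 with the GC trend removed (edgeR), and under none of the alternatives run did it reach 1.5-fold. The groups did not overlap for 3 of the 7 genes, TNFRSF10A, TNFRSF10D and XIAP (42.9%), and for 45.4% of all genes tested. An adjusted p under 0.05 at any fold was reached by TNFRSF10A and TNFRSF10D among the 7, and by 36.3% of all genes.

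**Figure D2:**
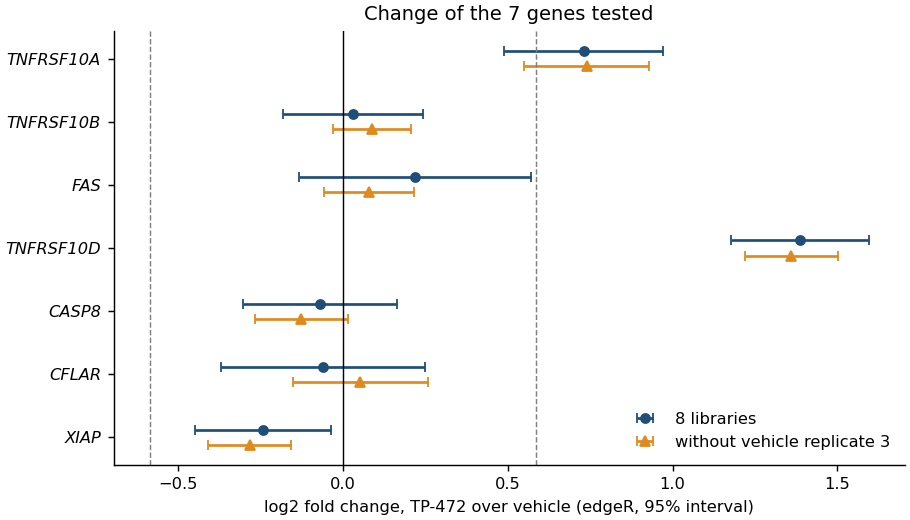
Log2 fold change of TP-472 over vehicle (x axis) with its 95% interval for the 7 genes tested, fitted on 8 libraries (circles) and without vehicle replicate 3 (triangles). Dashed lines mark a 1.5-fold change. The interval of TNFRSF10D lies wholly beyond the line, that of TNFRSF10A crosses it, and the other 5 lie between the lines.

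The balance between the decoy and the death receptors was then followed within each library, as counts per kb of exon, which needs no scaling between libraries. The ratio of TNFRSF10D to TNFRSF10A was 1.12 ± 0.1203 in vehicle and 1.76 ± 0.0948 with TP-472 (SD, n = 4). In vehicle it ran from 1.01 to 1.26 and with TP-472 from 1.67 to 1.86, so that the ranges did not overlap, and the mean ratio was 1.57 times higher after treatment (1.53 times without vehicle replicate 3). The ratio of TNFRSF10D to TNFRSF10B went from 0.365 ± 0.0469 to 0.926 ± 0.0375, with ranges of 0.307 to 0.417 and 0.880 to 0.960, or from 0.384 without vehicle replicate 3. As a share of the summed TNFRSF10A, TNFRSF10B and TNFRSF10D level, the decoy made up 21.5 ± 1.93% in vehicle (22.3% without vehicle replicate 3) and 37.8 ± 1.04% with TP-472. These ratios follow from the gene changes above and are given as a description with no test, and their level, as well as the fold of the share, depends on the exon length used.

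**Figure D3:**
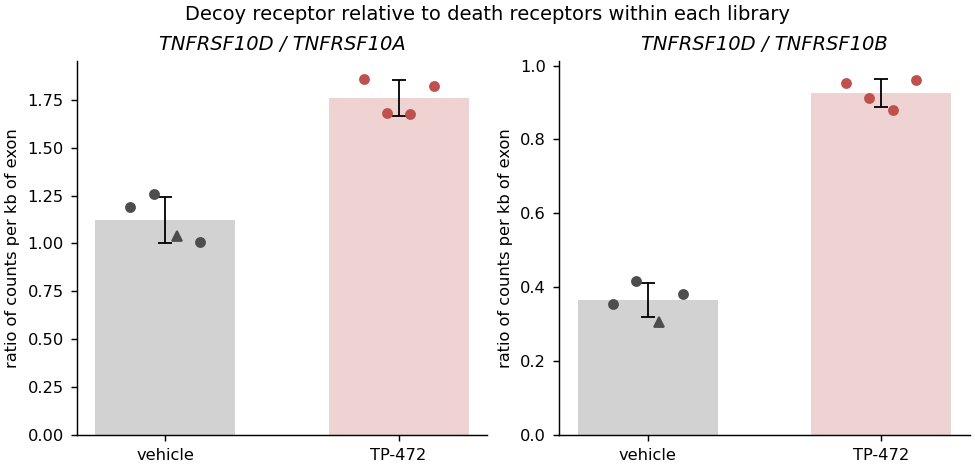
Ratio of TNFRSF10D to TNFRSF10A (left) and to TNFRSF10B (right) in each library, as counts per kb of merged exon (y axes, from 0). Points are 4 libraries a group, bars are means, error bars are SD, and the triangle is vehicle replicate 3. Both ratios are higher in all 4 TP-472 libraries than in any vehicle library.

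Per kb of merged exon, the vehicle levels ran from FAS at 21.8 ± 4.55 CPM per kb and TNFRSF10B at 18.4 ± 1.53 CPM per kb through XIAP at 9.82 ± 0.573 to TNFRSF10D at 6.67 ± 0.371 and TNFRSF10A at 5.97 ± 0.548 CPM per kb (SD, n = 4). CASP8 followed at 4.74 ± 0.424 and CFLAR at 3.82 ± 0.666 CPM per kb, with TNFSF10 at 0.108 CPM per kb. The ranges of FAS and TNFRSF10B overlapped in vehicle, as did those of TNFRSF10D and TNFRSF10A and those of CASP8 and CFLAR. With vehicle replicate 3 left out, only TNFRSF10D and TNFRSF10A overlapped among these 3 pairs. With TP-472 the order was FAS at 25.4 ± 0.952, TNFRSF10B at 18.8 ± 0.240, TNFRSF10D at 17.4 ± 0.497, TNFRSF10A at 9.90 ± 0.317, XIAP at 8.30 ± 0.339, CASP8 at 4.52 ± 0.176 and CFLAR at 3.66 ± 0.295 CPM per kb, with no overlap between neighbours. The order depends on the length used. By the median length of the coding transcripts, CFLAR, whose merged exons cover 22529 bases, was at 70.9 CPM per kb in vehicle, above FAS at 67.1. By that length TNFRSF10A lay above TNFRSF10D in both groups, at 18.0 against 6.67 CPM per kb in vehicle and 29.9 against 17.4 with TP-472. TNFRSF10B was then at 33.0 and CASP8 at 25.7 CPM per kb with TP-472. By either length TNFRSF10D was below XIAP in vehicle and above it with TP-472.

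Among all genes tested, the profiles nearest to TNFRSF10A over the 8 libraries were those of CIAPIN1, HTR7P1 and IPPK, with root mean square differences of 0.0436, 0.0620 and 0.0640 in centred log2 CPM. The nearest to TNFRSF10D were MCOLN2, MARS2 and GRHL1, at 0.0751, 0.0883 and 0.0912. Their mean levels were 1.17, 21.4 and 1.81 CPM, against 42.6 CPM for TNFRSF10D, so MCOLN2 and GRHL1 lay near the filter. None of the 6 belongs to the pathway lists described next.

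The TRAIL receptor genes lie together on chromosome 8, and CFLAR, CASP10 and CASP8 lie together on chromosome 2. Of 10 genes tested within 300 kb of the receptor cluster, TNFRSF10A and TNFRSF10D were called higher, and the noncoding AC107959.4 (log2 fold change -1.53) and ENTPD4 (-0.76) were called lower. TNFRSF10B, whose start is 156 kb from that of TNFRSF10A, and the genes CHMP7, R3HCC1, LOXL2, RHOBTB2 and AC100861.1 were not called. The start of TNFRSF10D is 61.1 kb from that of TNFRSF10A. Of 13 genes tested around CFLAR, CASP10 and CASP8, BZW1 was called higher (log2 fold change 1.04) and CASP10 lower. CASP10 was under 1 CPM in every TP-472 library, and CFLAR and CASP8 on either side of it were not called. The same neighbouring genes were called without vehicle replicate 3, with log2 fold changes of -1.21 for AC107959.4, -0.82 for ENTPD4 and 0.82 for BZW1.

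**Figure D4:**
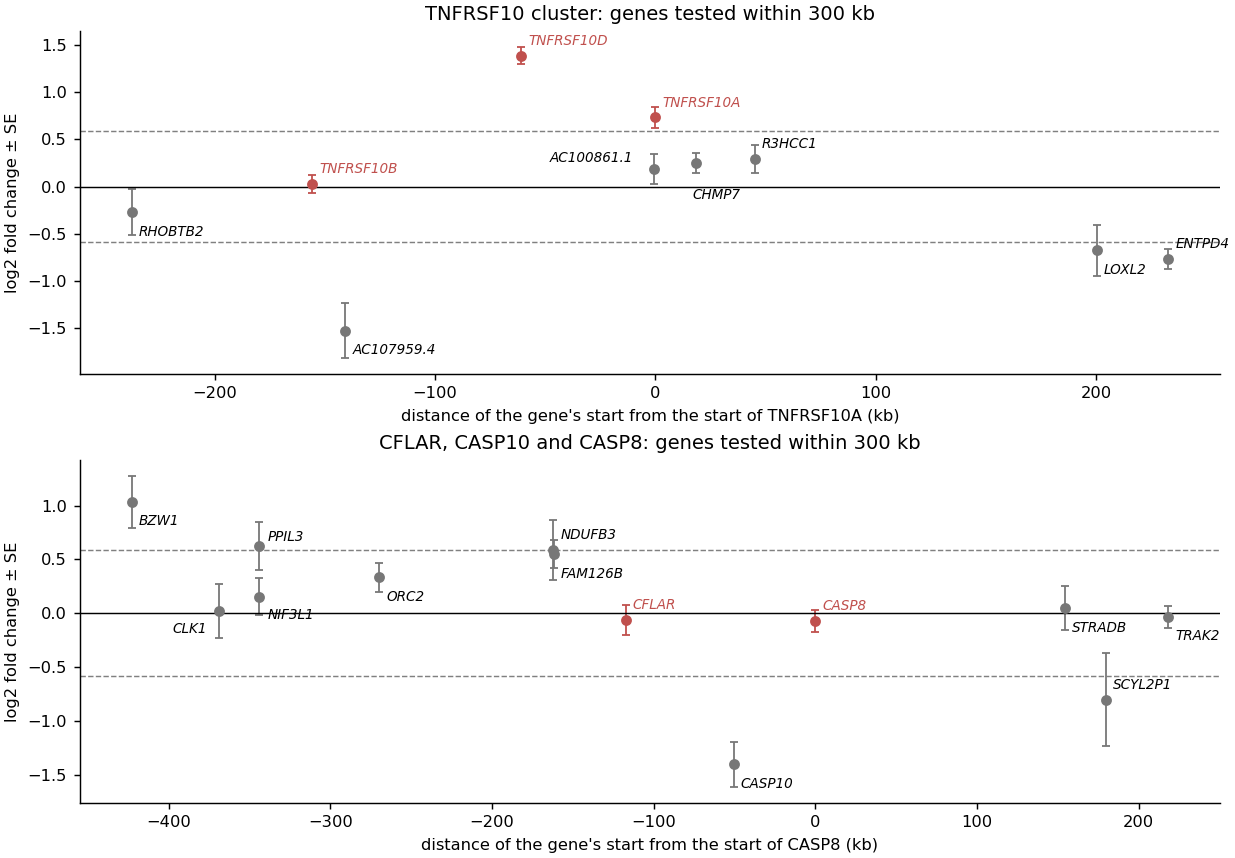
Log2 fold change ± SE of the genes tested within 300 kb of the TRAIL receptor cluster (top) and of CFLAR, CASP10 and CASP8 (bottom), against the distance of each gene's start from that of TNFRSF10A or CASP8 in kb. Members of the group are red, other genes grey, and dashed lines mark a 1.5-fold change. TNFRSF10D and TNFRSF10A stand above the upper line, and CASP10 stands below the lower line between CFLAR and CASP8. CASP10 was under 1 CPM in every TP-472 library.

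The other genes of the pathway were taken from 8 lists with 54 genes, of which 43 were tested. Of these 7 were called higher, 8 lower and 28 not called, and without vehicle replicate 3 the numbers were 8 higher and 8 lower. The share called was 34.9%, against 26.9% of all genes, the median log2 fold change was 0.12, and the groups did not overlap for 24 genes (55.8%, against 45.4% of all genes). No death ligand passed the filter. The ligand with the highest mean, also per kb of merged exon, was TNFSF12, the gene of TWEAK, with 71 counts summed over vehicle and 48 over TP-472. Vehicle replicate 3 held 36.8 of the 71, and without it the means were 0.320 CPM in vehicle and 0.324 CPM with TP-472. LTA, the gene of lymphotoxin alpha, had 1 count in vehicle and 14 with TP-472, a ratio of 13.3 with a 95% counting interval of 2.03 to 564.0. It is named here after its values were seen, so no test is given.

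All 5 tested genes among the other receptors and decoys were called, 2 higher and 3 lower, with and without vehicle replicate 3, at edgeR adjusted p from 0.000565 to 0.00415 on all libraries. The counts of this list and of those below stand against 26.9% of all genes, and lists this small allow no reading of their shares. TNFRSF12A, the TWEAK receptor, was at 17.7, 19.7, 44.0 and 19.8 CPM in vehicle and at 70.04, 82.5, 77.5 and 64.1 CPM with TP-472. Its log2 fold change was 1.54 (edgeR adjusted p = 0.00415), and 1.95 without vehicle replicate 3, the highest vehicle library. TNFRSF21, encoding death receptor DR6, rose by 1.49 on the log2 scale, from 3.76 to 10.6 CPM. TNFRSF25, the gene of the death receptor DR3, fell by 1.80, from 6.90 to 1.98 CPM. TNFRSF11B, which encodes the soluble TRAIL and RANKL decoy osteoprotegerin, fell by 1.36, from 2.79 to 1.08 CPM. For these 3 genes the log2 fold changes were 1.61, -1.49 and -1.50 with vehicle replicate 3 left out. TNFRSF1A, the main TNF receptor, was at 86.8 ± 19.7 CPM in vehicle and 43.9 ± 1.13 CPM with TP-472 (SD, n = 4) and fell by 0.98, or by 0.81 without that library. The decoy TNFRSF10C, next to TNFRSF10D, had 31 counts in vehicle and 18 with TP-472 and was not tested. Its means without vehicle replicate 3, which held 18.7 of the 31 counts, were 0.112 CPM in vehicle and 0.122 CPM with TP-472. The decoy gene TNFRSF6B had no count in any library.

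In the adaptor list 1 of 9 genes was called, PEA15, a death effector domain protein that binds FADD and caspase-8, which rose from 43.2 ± 2.62 to 99.97 ± 1.496 CPM (SD, n = 4, log2 fold change 1.21, edgeR adjusted p = 6.79e-05). The adaptor FADD was at 26.1 ± 5.83 and 36.5 ± 3.98 CPM, short of 1.5-fold with all libraries (log2 fold change 0.49, edgeR adjusted p = 0.0463) and called higher without vehicle replicate 3 (0.65, edgeR adjusted p = 0.000357). FADD is named here after its values were seen.

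Among the other caspases, 7 of the tested genes are described here, of which 2 (28.6%, close to the share of all genes) were called lower and none higher. CASP10, an initiator caspase related to CASP8, was low at 2.09 ± 0.278 CPM. It fell by 1.402 on the log2 scale to 0.789 ± 0.166 CPM (SD, n = 4). With TP-472 every library was under 1 CPM, at 0.583 to 0.978 CPM, so CASP10 passed the filter through the vehicle libraries. CASP1, the inflammasome caspase, fell by 0.98. Its adjusted p was 0.0165 in edgeR with all libraries, and the call was lost without TP-472 replicate 2 (0.0526), with a replicate block (0.0513) and in the test against a 1.5-fold change (0.171).

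Among the inhibitors of apoptosis, 2 of 5 tested genes rose and 1 fell. BIRC3, encoding the ubiquitin ligase cIAP2, was at 18.3, 19.9, 9.96 and 22.1 CPM in vehicle and at 91.3, 93.0, 92.0 and 110.6 CPM with TP-472. This was the largest rise among the tested genes of the lists, with a log2 fold change of 2.46 and an SE of 0.231 (edgeR adjusted p = 0.000188). The log2 fold change was 2.26 without vehicle replicate 3, the lowest library. BIRC2, encoding cIAP1, starts 29.8 kb from BIRC3 on chromosome 11 and rose by 1.37 on the log2 scale, or by 1.16 without vehicle replicate 3. NAIP, a sensor of the inflammasome as well as an inhibitor of apoptosis, fell by 1.33. It was low, at 2.40 ± 0.805 CPM in vehicle and 0.951 ± 0.162 CPM with TP-472 (SD, n = 4). XIAP, which is of the same family, is described above.

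Of the 4 antagonists of these inhibitors 2 were called lower. XAF1, an interferon-induced gene whose product binds XIAP, went from 51.3, 49.6, 60.0 and 47.8 CPM in vehicle to 5.44, 4.82, 5.35 and 4.78 CPM with TP-472. Its log2 fold change of -3.35 (SE 0.125, edgeR adjusted p = 7.59e-06) was the largest among the tested genes of the lists, and it was -3.28 without vehicle replicate 3. SEPTIN4, whose isoform ARTS binds XIAP, fell by 0.66 with all libraries (edgeR adjusted p = 0.0271) but was not called without vehicle replicate 3, at -0.54. Its call was kept under only 9 of 19 alternatives of processing. DIABLO and HTRA2, which are released from mitochondria, were not called.

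In the apoptosome and execution list 1 of 6 genes was called. CYCS, the gene of cytochrome c, rose from 191.5 ± 65.5 to 434.2 ± 21.1 CPM (SD, n = 4, log2 fold change 1.18, edgeR adjusted p = 0.00688), and the log2 fold change was 0.97 without vehicle replicate 3. APAF1, its partner in the apoptosome, was at -0.51 (edgeR adjusted p = 0.00754), short of 1.5-fold, and was called lower without vehicle replicate 3, at -0.59. It is named after its values were seen. In the list of ubiquitin control and necroptosis 1 of 7 tested genes was called, TNFAIP3, the NF-kB feedback gene A20, which rose by 0.99 on the log2 scale (edgeR adjusted p = 0.0109). With vehicle replicate 3 left out, PEA15, CASP10, CASP1, NAIP and TNFAIP3 kept their calls, with log2 fold changes of 1.21, -1.34, -1.15, -1.14 and 1.26. The necroptosis kinase gene RIPK3 had no count in any library.

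**Figure D5:**
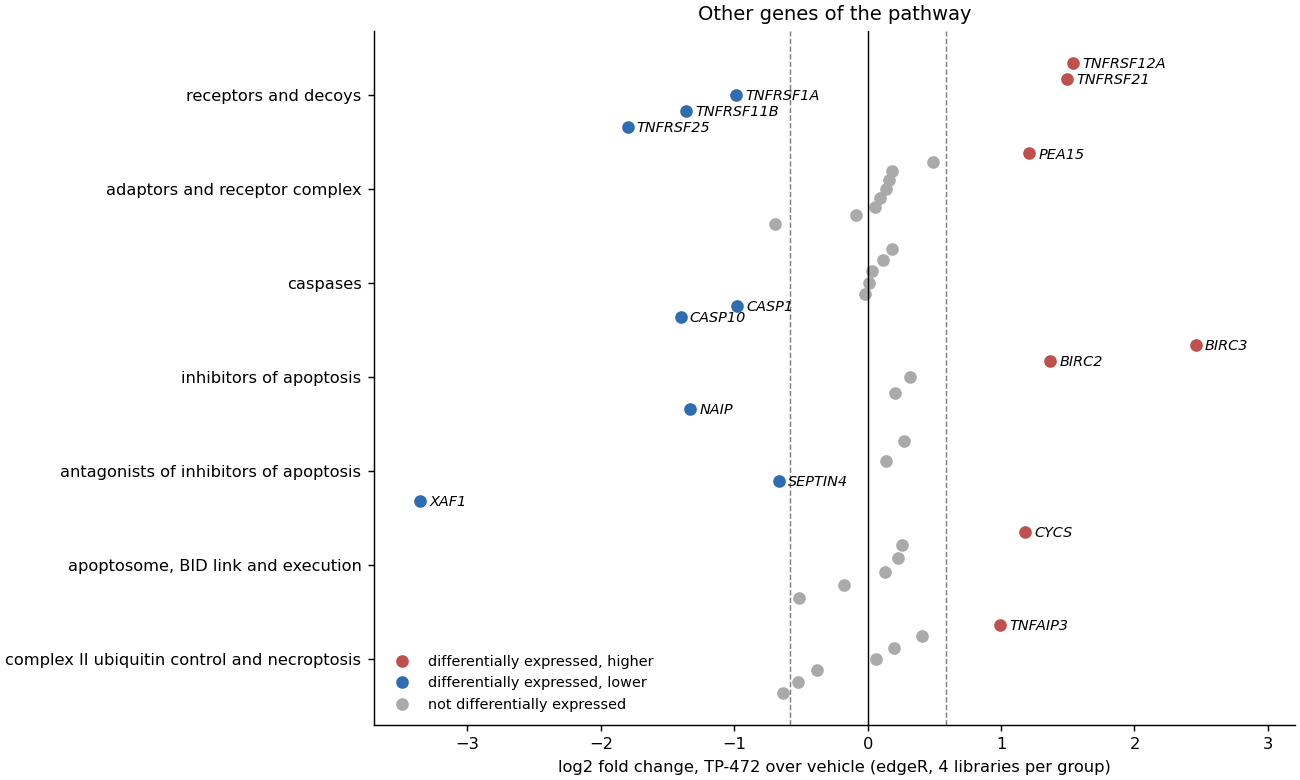
Log2 fold change of TP-472 over vehicle (x axis) of the 43 tested genes of the pathway lists, 1 row of points per list, from the fit on 8 libraries. Red points were called higher, blue points lower, grey points were not called, and dashed lines mark a 1.5-fold change. BIRC3 stands farthest to the right at 2.46 and XAF1 farthest to the left at -3.35.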

How the data were processed

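RNA from 4 vehicle and 4 TP-472 libraries was sequenced by the authors and quantified with Salmon 1.4.0 on GENCODE 34 transcripts (GRCh38). The deposited values were estimated counts summed per gene, not normalized. Replicates were not pooled, and the labels give no batch. Between 13.8% and 23.2% of the gene values per library, zeros included, were not whole. Counts were rounded, filtered at more than 1 CPM in at least 4 libraries (14073 genes), scaled by TMM and tested with edgeR 4.0.16 (quasi-likelihood F test) in R 4.3.3, with only the group as a term and Benjamini-Hochberg adjustment over all genes tested. For differential expression in the RNA-seq data the study names fold and p limits, used here, but no test. DESeq2 1.42.0 and limma 3.58.1 served as alternatives, beside other scalings, filters, a replicate block, a GC correction and each library left out. Positions and lengths came from GENCODE 29. On simulated data with 14073 genes, 106 of 110 genes changed by a log2 fold of 2 and 51 of 86 changed by 1 were called. Of 13701 unchanged genes, 8 were called. Far fewer genes were changed there than were called in the data, so these shares need not hold for the data.

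One gene of the lists is not reported here. The members and lists were chosen with earlier results of these data known. Genes named were the 8 members, in each list up to 4 called genes of largest change or, where none was called, the most abundant, and the 3 nearest profiles of each called member. TNFRSF1A, FADD, APAF1, LTA, TNFRSF10C, the uncalled antagonists, genes without counts and the neighbouring genes were named after their values were seen. No pair of libraries differed by less than sampling noise.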

Additional observations from a re-analysis of the deposited data

Results flagged for a closer look

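In 3 of 46 groups of 4 libraries examined over the members and named genes, 1 library lay far from the other 3 (by Dixon's test at the 95% level). Chance alone flags about 5% of groups. TNFSF10 in TP-472 replicate 3 was at 0.166 CPM, the next library being at 0.0564 CPM, a difference of 6 counts against 2. TNFRSF12A in vehicle replicate 3 was at 44.0 CPM, the next at 19.8 CPM. BIRC3 in TP-472 replicate 4 was at 110.6 CPM, the next at 93.0 CPM. One of the 3 is the vehicle library that stood apart on all genes.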

How the results depend on the processing

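TNFRSF10D kept its call under all 20 alternatives (log2 fold change 1.32 to 1.42), and TNFRSF10A under 19 (0.66 to 0.79), losing it in the test against a 1.5-fold change (0.73, edgeR adjusted p = 0.202). That test left 1123 genes called in either direction, 1 member and 5 pathway genes called higher, and 6 pathway genes called lower. TNFRSF10B, FAS, CASP8, CFLAR and XIAP were not called under any alternative, all staying under 1.5-fold, though with quality weights in limma the adjusted p was 0.0322 for TNFRSF10B and 0.0394 for CASP8, and with the GC trend removed 0.0423 for CASP8 (edgeR). Members called lower numbered 1, TNFSF10, in DESeq2 and with no filter. Both tested 33192 genes, over which the median log2 fold change was 0.13 and 0.12. With a stricter filter of 5 CPM, 2 pathway genes were called lower, since fewer were tested, while 7 were still called higher. TNFRSF25, TNFRSF11B, CASP10, CASP1, NAIP and SEPTIN4, all called lower in the main test, did not pass that filter. Most of the lower calls thus rest on genes of low counts. Leaving out 1 library, the genes called ranged from 2690 (without TP-472 replicate 3) to 4223 (without vehicle replicate 2), and the log2 ratio of TNFSF10 from -2.80 to -1.93. SEPTIN4 kept its call under 9 and CASP1 under 16 of 19 alternatives each. CYCS and TNFAIP3 kept theirs under 19 of 20 each. The replicate numbers did not pair the libraries (correlations of own numbers -0.055, 0.12, -0.17 and -0.18), and a replicate block left 3055 genes and the same 2 members called, while the pathway genes called lower went from 8 to 6. The planned GC correction on merged exons was not run, as the sequences used here were promoter windows and transcripts, not a whole genome. One on transcripts, chosen after seeing the data, changed no member's call. Depth limits TNFSF10, with 2 to 20 counts a library.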
